A study of Mus musculus with 13 samples.

Results

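The chromatin of 9 genes of the transforming growth factor beta (TGF-beta) pathway was followed peak by peak in mouse microglia, the resident macrophages of the brain. The genes were the ligand gene Tgfb1, the receptor genes Tgfbr1 and Tgfbr2, the signal transducers Smad2, Smad3 and Smad4, the inhibitory Smad7 and the corepressors Ski and Skil. The members were all peaks that the deposited table assigns to 1 of these symbols within 50000 bp of the nearest annotated start site. This gave 59 of 38620 peaks: 2 for Tgfb1, 4 for Tgfbr1, 9 for Tgfbr2, 1 for Smad2, 15 for Smad3, 5 for Smad4, 5 for Smad7, 13 for Ski and 5 for Skil. Peaks were taken by symbol and position only, not by accessibility, while the genes were chosen with earlier results of these data known. Of the 59 peaks, 11 were annotated as promoter, 36 as intron and 12 as distal intergenic. A further 13 peaks of these symbols lay beyond the limit and were not used. The nearest of them was 51737 bp from a start site of Tgfbr2, and the farthest member inside the limit was a Tgfbr2 peak at 41365 bp.

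TGF-beta ligands are secreted in a latent form and, once released, bridge a type II receptor (encoded by Tgfbr2) and a type I receptor (Tgfbr1). The activated type I receptor phosphorylates SMAD2 and SMAD3, which join SMAD4 and act on target genes in the nucleus. SMAD7 blocks the receptor complex, SKI and SnoN (the product of Skil) hold back SMAD-driven transcription, and the genes of SMAD7 and SnoN are themselves induced by the pathway. In the brain, TGF-beta signalling is required for microglia to keep their homeostatic gene programme.

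The study asked whether microglia keep a memory of an earlier inflammatory challenge when the population is depleted and regrows. Open chromatin was mapped by ATAC-seq, which uses the Tn5 transposase to cut accessible DNA, in cells sorted from brain as CD11b-high, CD45-intermediate and Ly6C-negative. All animals were male C57BL/6J mice, 10 weeks old at the first injection and 15 weeks old at collection. Each animal received an intraperitoneal injection, then 1 week later 5 daily gavages of BLZ945 or its vehicle, and 5 weeks after the first injection a last injection, with tissue taken 3 h later. The daily dose of BLZ945, an inhibitor of CSF1R, a receptor that microglia need to survive, was 169 mg/kg. Injections held lipopolysaccharide (LPS, a bacterial cell wall component) at 1 mg/kg or phosphate-buffered saline (PBS). LBL mice received LPS, BLZ945 and LPS. LL mice received LPS, vehicle and LPS. PBL mice received PBS, BLZ945 and LPS. PL mice received PBS, vehicle and LPS. PBP mice received PBS, BLZ945 and PBS, and PP mice received PBS, vehicle and PBS. There were 2 libraries per group and 3 in PBL, 13 in all, each from 40000 cells of each of 2 animals, so every value is an average over a pool. The PBL pools named 3_4 and 4_5 have animal number 4 in common, and the labels do not say if that is 1 mouse. The p-values below measure the spread between pools, estimated over all 6 groups together. Compared over peaks, the PL pools differed more than pools of other groups, at a chi-square per degree of freedom of 1.83. It was 0.974 (LBL) to 1.14 (PBL 1_2 and 3_4) in the other groups. A shared spread can therefore be too small for PL. Pools are named below by group and by these numbers. Where libraries of different groups are said not to overlap, this describes their values. The share of all peaks that do so is given only for the 9 LPS against the 4 PBS libraries.

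The libraries held 927840 (PP 1_2) to 2772688 (PBL 4_5) rounded counts in peaks. Values are CPM, counts scaled to library size after TMM normalisation, where 1 count equalled 1.05 CPM in the shallowest library and 0.367 CPM in the deepest. PP, PBP and PL cells were sorted on the Astrios instrument and PBL, LL and LBL cells on the XDP, so PBL against PBP, LL against PL and PBL against PL also compare sorters and isolation days. PBL, LL and LBL were each isolated on a day of their own, 1 PL pool shared its day with PBP and the other shared its day with PP. PBP and PP were isolated on different days, so PBP against PP also compares days, as do LBL against PBL and LBL against LL. The cell type was checked on promoter peaks: 9 of 10 microglial marker genes had one, with a sum of 468 to 615 CPM in the LPS libraries and 567 to 655 CPM in the PBS libraries, and the remaining gene, Fcrls, had none. Neutrophil and neuron lists had 0 of 5 and 0 of 4 genes with a tested promoter peak, and the monocyte list had 1 of 4, Vcan and not Ccr2, Ly6c2 or Plac8, at 24.3 to 41.6 CPM in the LPS libraries and 18.9 to 30.5 CPM in the PBS libraries. The lists for border macrophages (1 of 5 genes), lymphocytes (1 of 7), astrocytes (2 of 4), oligodendrocytes (2 of 4) and vessel cells (1 of 4) had overlapping sums in the LPS and PBS libraries. The astrocyte sum was the highest outside microglia, at 56.9 to 79.9 CPM in the LPS libraries and 57.9 to 74.7 CPM in the PBS libraries. What part these cells have in the results was not tested. In pooled cells, fewer cells with an open site and a less open site in each cell cannot be told apart.

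The promoters of 4 genes are printed because the whole of each lies inside a measured peak: those of Tgfb1 and Tgfbr1 lie in peaks that were lower in PL than in PP, and those of Smad3 and Tgfbr2 in peaks that were not called in any comparison. The sequences run from 250 bases before to 50 bases after the start, 5′ to 3′ on the strand of the gene, from RefSeq on GRCm38.p6. Capitals mark GC boxes (GGGCGG on either strand) and the NF-kB core (GGANTTTCC on either strand).
Tgfb1, chr7:25686752-25687051, plus strand: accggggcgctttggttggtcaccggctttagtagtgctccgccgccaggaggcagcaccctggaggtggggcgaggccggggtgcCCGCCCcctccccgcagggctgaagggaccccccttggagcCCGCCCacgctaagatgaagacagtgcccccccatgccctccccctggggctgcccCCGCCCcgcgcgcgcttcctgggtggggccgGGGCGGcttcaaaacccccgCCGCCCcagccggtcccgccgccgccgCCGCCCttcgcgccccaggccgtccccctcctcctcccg
Tgfbr1, chr4:47352972-47353271, plus strand: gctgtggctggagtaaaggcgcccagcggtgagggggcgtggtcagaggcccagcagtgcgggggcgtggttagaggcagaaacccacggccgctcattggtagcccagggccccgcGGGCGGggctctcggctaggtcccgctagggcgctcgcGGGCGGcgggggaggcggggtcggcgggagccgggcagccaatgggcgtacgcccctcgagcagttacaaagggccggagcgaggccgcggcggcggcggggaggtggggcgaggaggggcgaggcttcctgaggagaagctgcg
Tgfbr2, chr9:116175314-116175613, minus strand: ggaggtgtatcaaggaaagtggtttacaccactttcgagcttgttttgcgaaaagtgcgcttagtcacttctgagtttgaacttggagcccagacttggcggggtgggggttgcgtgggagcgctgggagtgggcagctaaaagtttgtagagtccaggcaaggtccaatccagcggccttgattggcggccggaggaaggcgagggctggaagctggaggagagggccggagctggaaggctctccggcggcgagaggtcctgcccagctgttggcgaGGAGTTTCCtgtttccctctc
Smad3, chr9:63757945-63758244, minus strand: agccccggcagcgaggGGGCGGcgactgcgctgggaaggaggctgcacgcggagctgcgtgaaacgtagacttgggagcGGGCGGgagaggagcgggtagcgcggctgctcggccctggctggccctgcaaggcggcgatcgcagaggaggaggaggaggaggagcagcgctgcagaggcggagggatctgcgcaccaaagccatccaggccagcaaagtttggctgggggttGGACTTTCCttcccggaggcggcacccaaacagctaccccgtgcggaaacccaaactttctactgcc
The Tgfb1 promoter held 6 GC boxes at a GC content of 77% and the Tgfbr1 promoter 2 at 74.7%. The Smad3 promoter held 2 GC boxes and 1 NF-kB core at 67.7% GC, and the Tgfbr2 promoter held 1 NF-kB core and no GC box at 59% GC. Over all 32851 promoters of the same length the median GC content was 52.7%, 35.7% held a GC box and 1.25% held the NF-kB core. The SMAD palindrome GTCTAGAC (0.213% of all promoters), the shorter SMAD element CAGACA (21%), the AP-1 site TGANTCA (7.81%), the PU.1 site GAGGAAGT (3.2%) and the ISRE core GAAANNGAA (8.56%) were searched on both strands and had no match in these 4 windows. A match or its absence is a description of these letters.

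After a first LPS injection the called sites of the 9 genes went in both directions. The clearest was an intronic peak of Smad7, which was lower in every LPS library than in every PBS library. Some distal peaks of Smad3 were called higher in PBL than in PBP, which also differ in sorter and day, and with arms averaged. No Smad3 peak was called in PL against PP. Some internal peaks of Ski were called higher after LPS and another lower. The promoter peaks of Tgfb1 and Tgfbr1 were lower in PL than in PP. In PL against PP, 4 of the 59 peaks passed an adjusted p of 0.05 in edgeR's quasi-likelihood test with Benjamini-Hochberg adjustment over 37516 peaks, 1 higher and 3 lower. Of all tested peaks 7.46% passed there, 4.77% higher and 2.69% lower, so the members' share of calls was near the background. In PBL against PBP, 7 passed, 5 higher and 2 lower, beside 9.96% of all peaks, 6.74% higher and 3.23% lower. These comparisons share no library. The median log2 fold change of the members was -0.04 in PL against PP, beside 0.00834 over all peaks, and 0.07 in PBL against PBP, beside -0.00297 over all peaks. With both arms averaged, a contrast added after the data were seen, 11 passed, 7 higher and 4 lower, beside 15.5% of all peaks, 10% higher and 5.42% lower. Across all 6 groups 15 of 59 passed, beside 16.6% of all peaks.

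**Figure D1:**
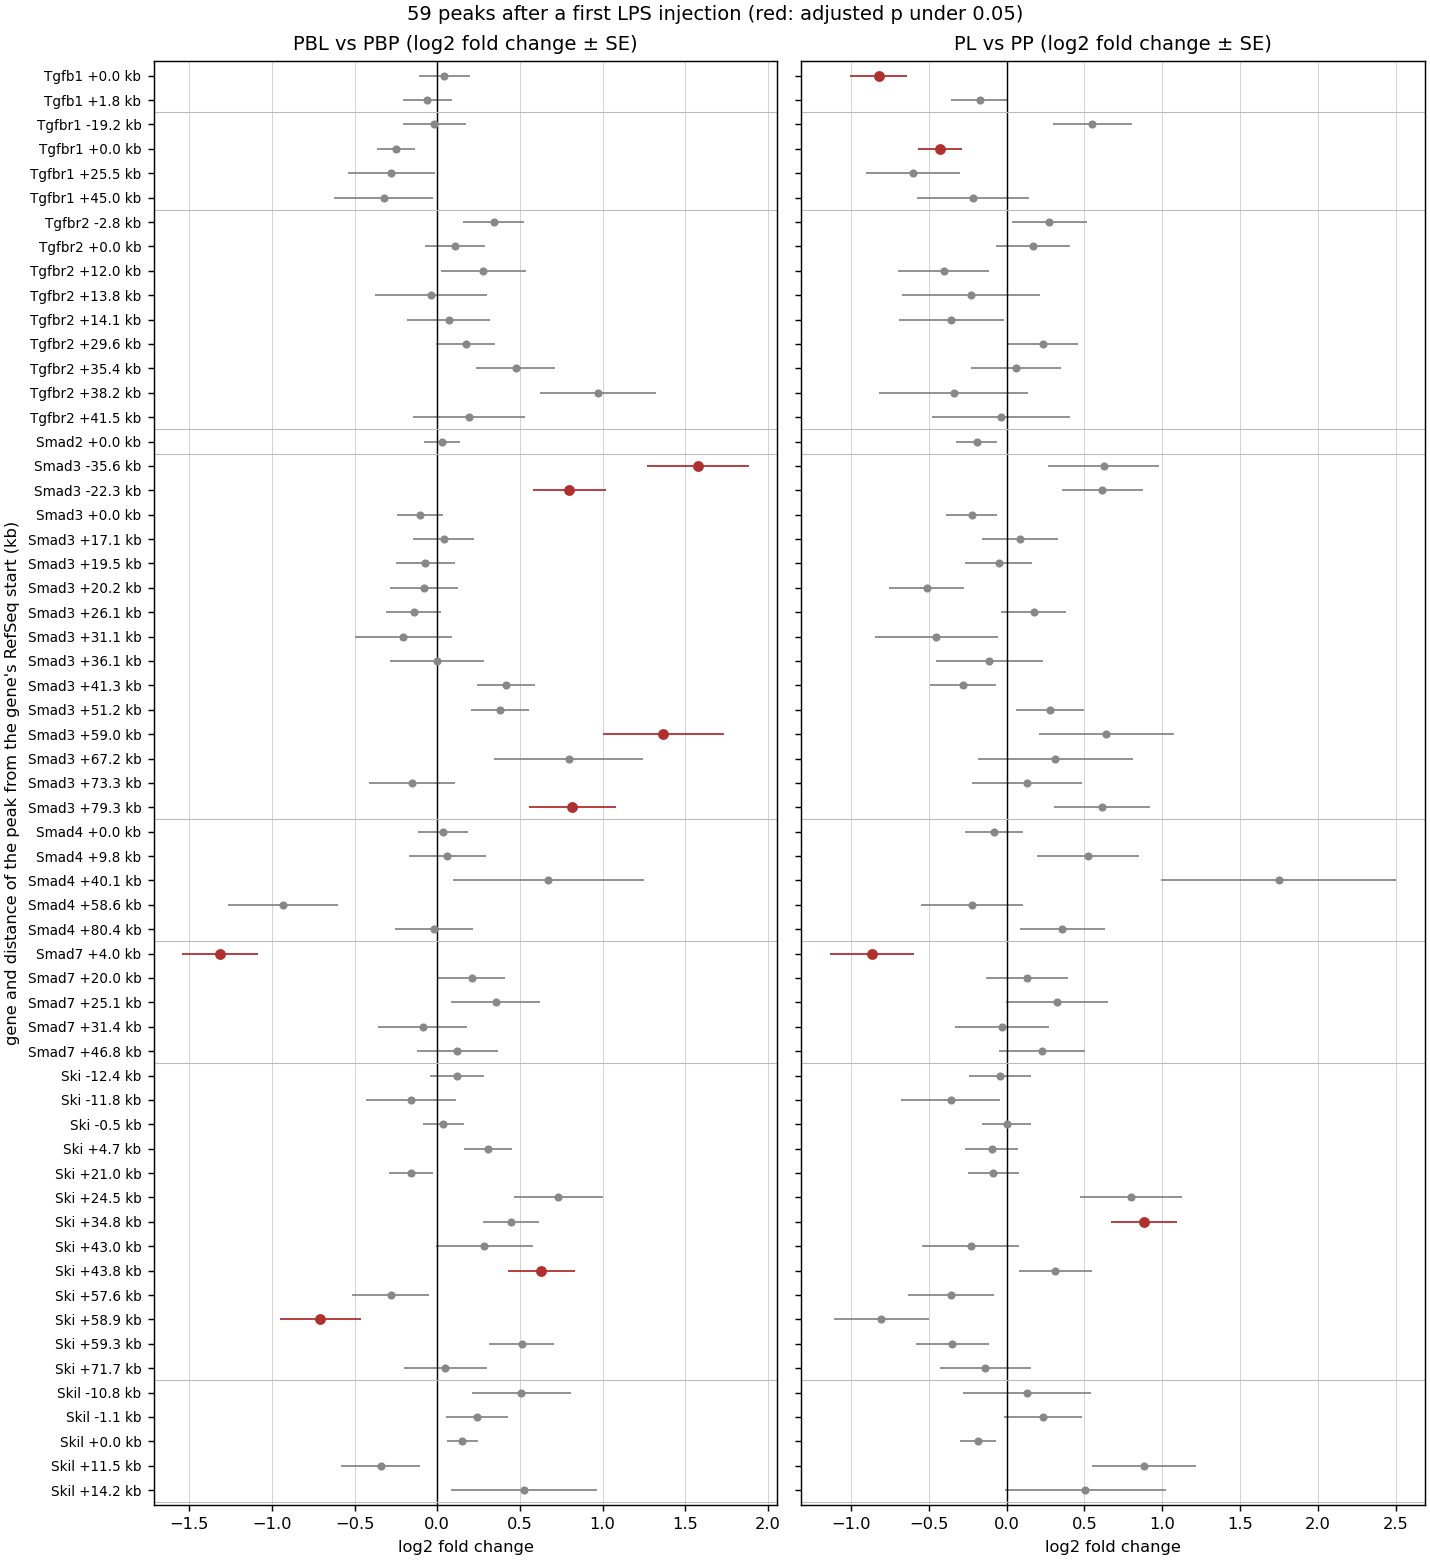
Log2 fold change with its standard error for each of the 59 peaks (rows, by gene and distance from the RefSeq start of the gene in kb) in PBL against PBP (left) and PL against PP (right), with called peaks in red. The 7 and 4 called peaks lie on both sides of 0, and the Smad7 peak is called in both comparisons.

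Tgfb1 encodes TGF-beta1, the main isoform made by microglia. Its promoter peak over the RefSeq start (chr7:25686729-25687544, mm10) had 49.2 and 42.6 CPM in PL libraries, against 86.2 and 75.8 CPM in PP libraries. All PL values lay below all PP values, and the share of all peaks that do so is not given here. The log2 fold change was -0.82 ± 0.18 (standard error; adjusted p = 0.00105). This call was lost without the PP 1_2 pool (-0.74, adjusted p = 0.0678). In the BLZ945 arm the peak had 71.6, 47.2 and 57.9 CPM in PBL libraries and 55.5 and 56.6 CPM in PBP libraries, which overlapped. That log2 fold change was 0.04 ± 0.16 (adjusted p = 0.921). The responses of the arms differed by 0.87 ± 0.24 on the log2 scale, which did not pass over all peaks (adjusted p = 0.116). PBP libraries lay below PP libraries at this peak, at -0.53 ± 0.18, without a call (adjusted p = 0.251). PBP and PP also differ in isolation day. The PP libraries were the highest of all 13 at this promoter.

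Promoter peaks as a class were somewhat lower in PL: their median log2 fold change against PP was -0.10, beside 0.10 for the other peaks, and 4.64% of 13806 promoter peaks were called lower. The PL 3_4 library had 53.3% of its counts in promoter peaks, against 55.6% to 60.2% in the other 12 libraries. Among the members, 8 of 11 promoter peaks had a fold change below 0 in PL against PP. Without PL 3_4 the Tgfb1 promoter stayed called (-0.73, adjusted p = 0.0312), and after cyclic loess normalisation its fold change was -0.82 (adjusted p = 0.000505).

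The other Tgfb1 peak (chr7:25688826-25689597) lies 1824 bp inside the gene at the start of another annotated transcript. It was lower after repeated than after single LPS. It had 37.7 and 49.2 CPM in LBL libraries, 45.9 and 42.6 CPM in LL libraries, 73.0, 52.7 and 63.8 CPM in PBL libraries and 63.4 and 53.3 CPM in PL libraries. All libraries with repeated LPS lay below all libraries with single LPS, and the share of all peaks that do so is not given here. The PBP and PP libraries had 60.3 to 69.4 CPM. With arms averaged the log2 fold change was -0.45 ± 0.11 (adjusted p = 0.0132), and the 6 groups differed (adjusted p = 0.00452). Neither LBL against PBL (-0.50, adjusted p = 0.0666) nor LL against PL (-0.40, adjusted p = 0.5) passed alone. The averaged call was lost without LL 3_4 (adjusted p = 0.0957) or LBL 1_2 (0.157), with DESeq2 (0.346) and after thinning to equal depth (0.354), and the 6-group call was lost with DESeq2 (0.13) and after thinning (0.209).

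Tgfbr1 encodes the type I receptor kinase. Its promoter peak (chr4:47352627-47353672) was open in all libraries and moderately lower after LPS. It had 101 and 78.3 CPM in PL libraries, against 118 and 123 CPM in PP libraries. It had 99.7, 97.2 and 94.97 CPM in PBL libraries, against 124 and 105 CPM in PBP libraries. In both arms the LPS libraries lay below the PBS libraries. The log2 fold change was -0.43 ± 0.14 in PL against PP (adjusted p = 0.043), -0.25 ± 0.12 in PBL against PBP (adjusted p = 0.182) and -0.34 ± 0.09 with arms averaged (adjusted p = 0.00425). The PL against PP call was lost without PL 3_4 (-0.26, adjusted p = 0.506), PP 1_2 (0.153) or PP 3_4 (0.213), with DESeq2 (0.138), after thinning (0.0544) and in a fit of PL and PP alone (0.129). Without PBP 1_2 or PL 3_4 the averaged fold change missed the threshold (adjusted p = 0.0633 and 0.0531). In the LBL libraries the peak had 117 and 108 CPM and in the LL libraries 91.8 and 101 CPM. LBL against PBL was 0.21 ± 0.11 without a call (adjusted p = 0.406). The 3 other Tgfbr1 peaks averaged 12.0 to 36.2 CPM and were not called in any comparison.

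Tgfbr2 encodes the type II receptor that binds the ligand. Its 9 peaks spanned the promoter, a site upstream of it and the long introns 1 and 2, and their mean levels ran from 9.47 to 45.3 CPM. The promoter peak (chr9:116174994-116175617) did not differ beyond the spread. It had 36.4 and 45.7 CPM in LBL, 36.4 and 39.4 in LL, 36.5, 40.7 and 44.7 in PBL, 39.7 and 32.0 in PL, 41.5 and 34.7 in PBP and 29.4 and 33.9 CPM in PP libraries (adjusted p = 0.658 across the 6 groups).

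A site in intron 2 of Tgfbr2 was called more open after repeated than after single LPS only with arms averaged. This peak, 41365 bp from the nearest start (chr9:116133479-116133900), had 14.3 and 22.3 CPM in LBL libraries and 15.0 and 17.3 CPM in LL libraries. It had 9.83, 14.8 and 8.07 CPM in PBL libraries and 7.71 and 10.1 CPM in PL libraries. The LL libraries lay above the PL libraries, while LBL overlapped PBL. Neither LL against PL (0.85 ± 0.31, adjusted p = 0.406) nor LBL against PBL (0.79 ± 0.27, adjusted p = 0.101) passed alone. The first also compares sorters and days and the second days, which cannot be told apart from the earlier LPS. With arms averaged, repeated against single LPS gave 0.82 ± 0.21 on the log2 scale (adjusted p = 0.011). That call was lost without LBL 3_4 (0.63, adjusted p = 0.251), PBL 4_5 (0.0665) or LL 3_4 (0.0902), with DESeq2 (0.606), limma-trend (0.137 and, after loess, 0.152) and after thinning (0.529). The peak at 29479 bp (chr9:116145170-116145786) had 72.8 and 48.7 CPM in LBL, 57.4 and 45.9 in LL, 35.8, 47.2 and 48.4 in PBL, 39.1 and 43.7 in PL, 40.3 and 39.2 in PBP and 34.7 and 35.9 CPM in PP libraries. LBL 1_2 was the highest of the 13. The 6 groups differed there (adjusted p = 0.0239), but not without LBL 1_2 (0.359), LL 1_2 (0.0566), PP 1_2 (0.0713) or PP 3_4 (0.0661), nor with DESeq2 (0.392), after thinning (0.112) or with the LBL libraries summed as 1 sample (0.0635).

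Summed over its 9 peaks, Tgfbr2 had the smallest 6-group p of the 9 genes. Its locus had 276 and 254 CPM in LBL, 268 and 256 in LL, 204, 252 and 250 in PBL, 196 and 221 in PL, 217 and 179 in PBP and 186 and 208 CPM in PP libraries, scaled over locus sums. All 4 libraries with repeated LPS lay above the other 9. The margin was narrow, with LBL 3_4 at 253.5 CPM and PBL 3_4 at 252.1 CPM. The share of all loci with such an order is not given here. These 4 libraries also differ in sorter and day from PL, PBP and PP, and in day from PBL. Such differences cannot be told apart from repeated LPS. The 6 groups differed (adjusted p = 0.000788, beside 15.8% of 13729 loci called), and this held in every alternative with peaks out to 50000 bp. With peaks within 10000 bp of a start it did not pass (adjusted p = 0.148), and within 1000 bp it did not either (0.646). All 7 intronic peaks lie beyond 10000 bp. Repeated against single LPS with arms averaged gave 0.24 ± 0.07 on the log2 scale (adjusted p = 0.0431, beside 1.78% of loci). That averaged call was lost without any 1 of 9 libraries, at adjusted p of 0.057 to 0.244, and with DESeq2 (0.3), limma-trend (0.0891 and, after loess, 0.13), thinning (0.109) and the LBL libraries summed (0.104). With peaks within 10000 bp and 1000 bp its log2 fold change was 0.07 in both (adjusted p = 0.84 and 0.933).

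**Figure D2:**
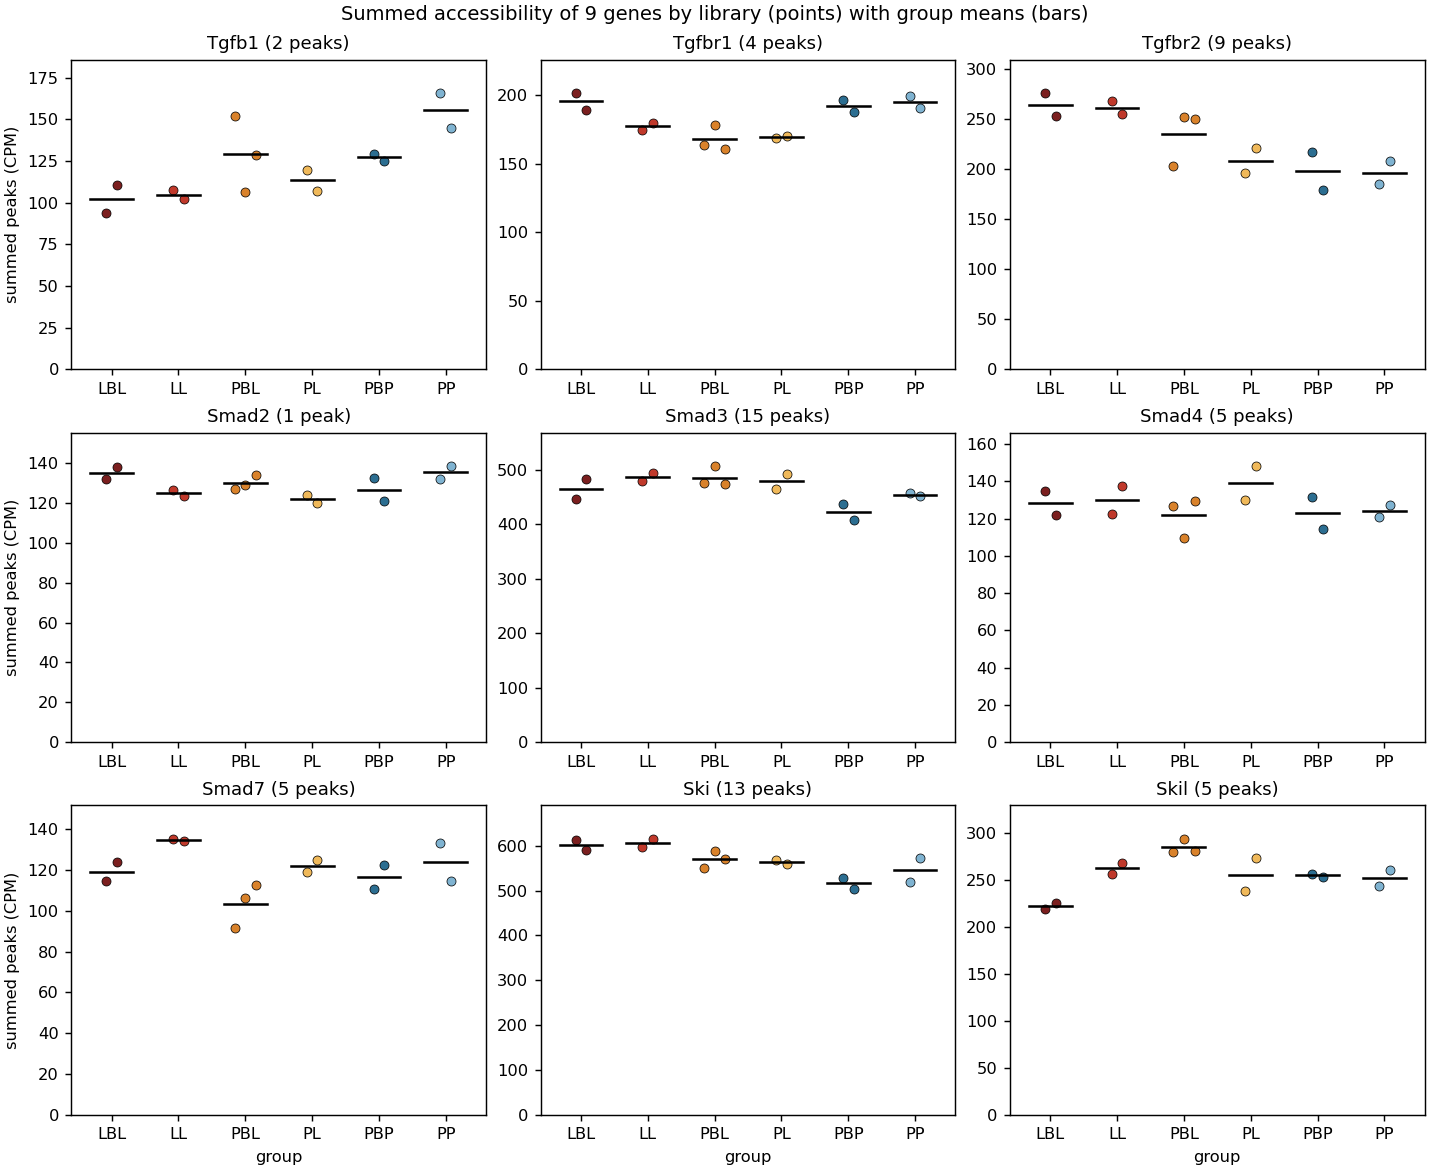
Summed CPM of the peaks of each gene by library (points) and group mean (bars), with groups in the order LBL, LL, PBL, PL, PBP and PP and vertical axes from 0. Tgfbr2 is highest in the 4 libraries with repeated LPS, at 254 to 276 CPM, with PBL 3_4 just below at 252 CPM. Tgfb1 has its highest group mean in PP, where 1 of the libraries lies below the highest PBL library.

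Smad2 and Smad3 encode the SMADs that the type I receptor phosphorylates. Smad2 had 1 peak, a wide promoter peak (chr18:76241012-76242490), with similar levels in all groups. It had 121.5 and 128 CPM in LBL, 117 and 113 in LL, 121, 121 and 127 in PBL, 117 and 108 in PL, 127.5 and 113 in PBP and 124 and 132 CPM in PP libraries. The 6 groups did not differ beyond their spread (adjusted p = 0.715). Its log2 fold change in PL against PP was -0.19 ± 0.13 (adjusted p = 0.417).

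Smad3 differed at distal sites and not, beyond its spread, at its promoter. The promoter peak (chr9:63757633-63758645) had 59.6 to 84.2 CPM in the 9 LPS libraries and 73.2 to 85.2 CPM in the 4 PBS libraries (adjusted p = 0.538 across the 6 groups). The peak 35611 bp upstream (chr9:63793605-63794047) had 23.9, 19.0 and 21.6 CPM in PBL libraries, against 7.93 and 6.03 CPM in PBP libraries. It had 15.4 and 19.2 CPM in PL libraries, against 12.6 and 9.98 CPM in PP libraries. In both arms the LPS libraries lay above the PBS libraries. The log2 fold change was 1.58 ± 0.31 in PBL against PBP (2.98-fold, adjusted p = 6.1e-05), a call kept in every alternative run. In PL against PP it was 0.62 ± 0.35 without a call (adjusted p = 0.307). The difference between the arms was 0.95 ± 0.50 (adjusted p = 0.467).

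After repeated LPS that upstream peak had 13.0 and 14.2 CPM in LBL libraries and 20.0 and 13.3 CPM in LL libraries. LBL lay below PBL, at -0.63 ± 0.25, without a call (adjusted p = 0.174). The peak 22293 bp upstream (chr9:63780287-63781002) had 33.0, 37.9 and 31.5 CPM in PBL libraries, against 18.9 and 20.4 CPM in PBP libraries. It had 36.8 and 32.5 CPM in PL libraries, against 21.0 and 24.0 CPM in PP libraries. The LBL and LL libraries had 29.4 to 36.9 CPM, so all 9 LPS libraries lay above all 4 PBS libraries. The log2 fold change was 0.80 ± 0.22 in PBL against PBP (adjusted p = 0.00681), 0.61 ± 0.26 in PL against PP (adjusted p = 0.137) and 0.71 ± 0.17 with arms averaged (adjusted p = 0.000995). The PBL against PBP call was lost without PBP 1_2 (adjusted p = 0.162) or PBP 3_4 (0.0608) and with DESeq2 (0.095), whereas the averaged call was kept in every alternative run.

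Deep in intron 1 of Smad3, 2 further peaks were higher in PBL than in PBP. The peak at chr9:63698633-63699012 had 14.0, 15.7 and 10.6 CPM in PBL libraries, against 6.10 and 3.77 CPM in PBP libraries, at 1.37 ± 0.37 (adjusted p = 0.00548). The peak at chr9:63678105-63678673 had 20.4, 24.1 and 24.2 CPM in PBL libraries, against 13.4 and 12.8 CPM in PBP libraries, at 0.82 ± 0.26 (adjusted p = 0.0265). Both comparisons had no overlap between groups, without a share over all peaks to set beside this. The call at chr9:63698633-63699012 was lost without PBP 3_4 (adjusted p = 0.158), with DESeq2 (0.128) and after thinning (0.217). The call at chr9:63678105-63678673 was lost without either PBP pool (0.199 and 0.185), PBL 3_4 (0.0669) or PBL 4_5 (0.0868), with DESeq2 (0.251), after thinning (0.129) and with the pool number as a block (0.083). In PL against PP these peaks had fold changes of 0.64 ± 0.43 and 0.61 ± 0.31 without a call (adjusted p = 0.413 and 0.238). The 10 other Smad3 peaks averaged 5.56 to 47.1 CPM and were not called in any comparison. PBL and PBP differ in sorter and day as well as in LPS, and these cannot be told apart from LPS in that comparison, while PL and PP share a sorter.

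**Figure D3:**
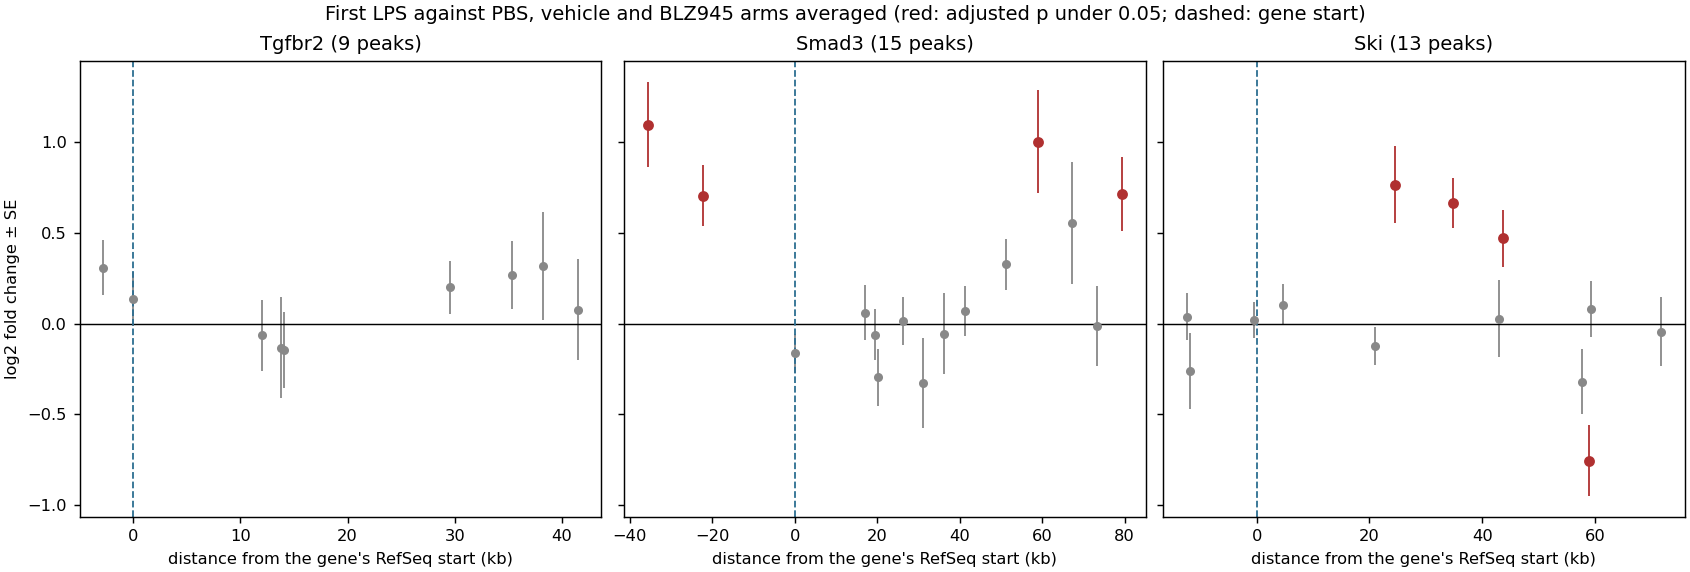
Log2 fold change with its standard error, first LPS against PBS with arms averaged, by distance from the RefSeq start of the gene (dashed line) for Tgfbr2, Smad3 and Ski, with called peaks in red. The main promoter peaks lie near 0, and the called peaks of Smad3 lie upstream or deep in intron 1.

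Smad4 encodes the SMAD shared by the TGF-beta and bone morphogenetic protein branches. Its main promoter peak (chr18:73703507-73704365) had 46.8 to 73.8 CPM over the 13 libraries, and the 6 groups did not differ beyond their spread (adjusted p = 0.981). An intron 10 peak (chr18:73644620-73645202) differed across the 6 groups (adjusted p = 0.0065). It had 10.4 and 7.11 CPM in LBL, 8.98 and 11.3 in LL, 6.32, 5.09 and 7.33 in PBL, 14.2 and 13.8 in PL, 12.2 and 12.1 in PBP and 14.7 and 18.0 CPM in PP libraries. The PBL libraries lay below the PL libraries and below the PBP libraries. No pairwise comparison passed: PBL against PL was -1.14 ± 0.30 (adjusted p = 0.0952) and PBL against PBP was -0.93 ± 0.33 (adjusted p = 0.0565). The 6-group call was lost with DESeq2 (adjusted p = 0.226). The largest fold change in PL against PP among the 59 members, 1.75 ± 0.75, belonged to a small Smad4 peak with a mean of 3.84 CPM and was not called (adjusted p = 0.147).

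Smad7 encodes the inhibitory SMAD that competes at the receptor and brings ubiquitin ligases to it. Its peak in intron 2 (chr18:75371345-75371794), 3980 bp into the gene, had the smallest 6-group p of the members. It had 14.0, 12.0 and 13.2 CPM in PBL libraries, against 31.7 and 33.2 CPM in PBP libraries. It had 20.2 and 14.9 CPM in PL libraries, against 29.4 and 33.9 CPM in PP libraries. It had 11.7 and 13.2 CPM in LBL libraries and 20.0 and 18.9 CPM in LL libraries. All 9 LPS libraries lay below all 4 PBS libraries, which 1.78% of all tested peaks did.

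The log2 fold change at that Smad7 peak was -1.31 ± 0.23 in PBL against PBP (2.48-fold lower, adjusted p = 5.42e-06). It was -0.86 ± 0.27 in PL against PP (1.82-fold lower, adjusted p = 0.0311) and -1.09 ± 0.18 with arms averaged (adjusted p = 5.6e-07). The first and the averaged calls, and the 6-group call (adjusted p = 4.18e-07), were kept in every alternative run. The PL against PP call was lost without PL 3_4 (-0.66, adjusted p = 0.327), PP 1_2 (0.104) or PP 3_4 (0.24), with DESeq2 (0.133), after thinning (0.286) and in a fit of PL and PP alone (0.077). The difference between the arms did not pass (-0.45 ± 0.35, adjusted p = 0.667). After repeated LPS it did not differ from single LPS beyond the spread: LL against PL was 0.15 ± 0.25 and LBL against PBL was -0.05 ± 0.28 (adjusted p = 0.933 and 0.962). BLZ945 libraries had lower values in the LPS groups, with LBL against LL at -0.63 ± 0.27 (adjusted p = 0.536) and PBL against PL at -0.42 ± 0.25 (adjusted p = 0.561), neither called. PBL and PL also differ in sorter and day, and LBL and LL in day, which cannot be told apart from BLZ945.

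The 4 other Smad7 peaks averaged 16.5 to 32.0 CPM and were not called in any comparison. The summed Smad7 locus therefore did not follow its intron 2 peak, at -0.14 in PBL against PBP and -0.02 in PL against PP on the log2 scale (adjusted p = 0.558 and 0.954). No promoter peak of Smad7 was among the peaks analysed. Over the 13 libraries, the 3 peaks of other genes most like the Smad7 peak among 15874 with a mean of at least 20 CPM were 1 lying 15282 bp upstream of Psma1, the promoter of Sirpa and 1 in an intron of Lyzl4. Their Pearson correlations of log2 CPM with it were 0.962, 0.956 and 0.936, as a description over libraries that share groups, sorters and days. The Sirpa promoter, of a gene for an inhibitory receptor of myeloid cells, averaged 61.9 CPM in LBL, 69.9 in LL, 59.6 in PBL, 61.5 in PL, 92.4 in PBP and 92.0 CPM in PP libraries.

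**Figure D4:**
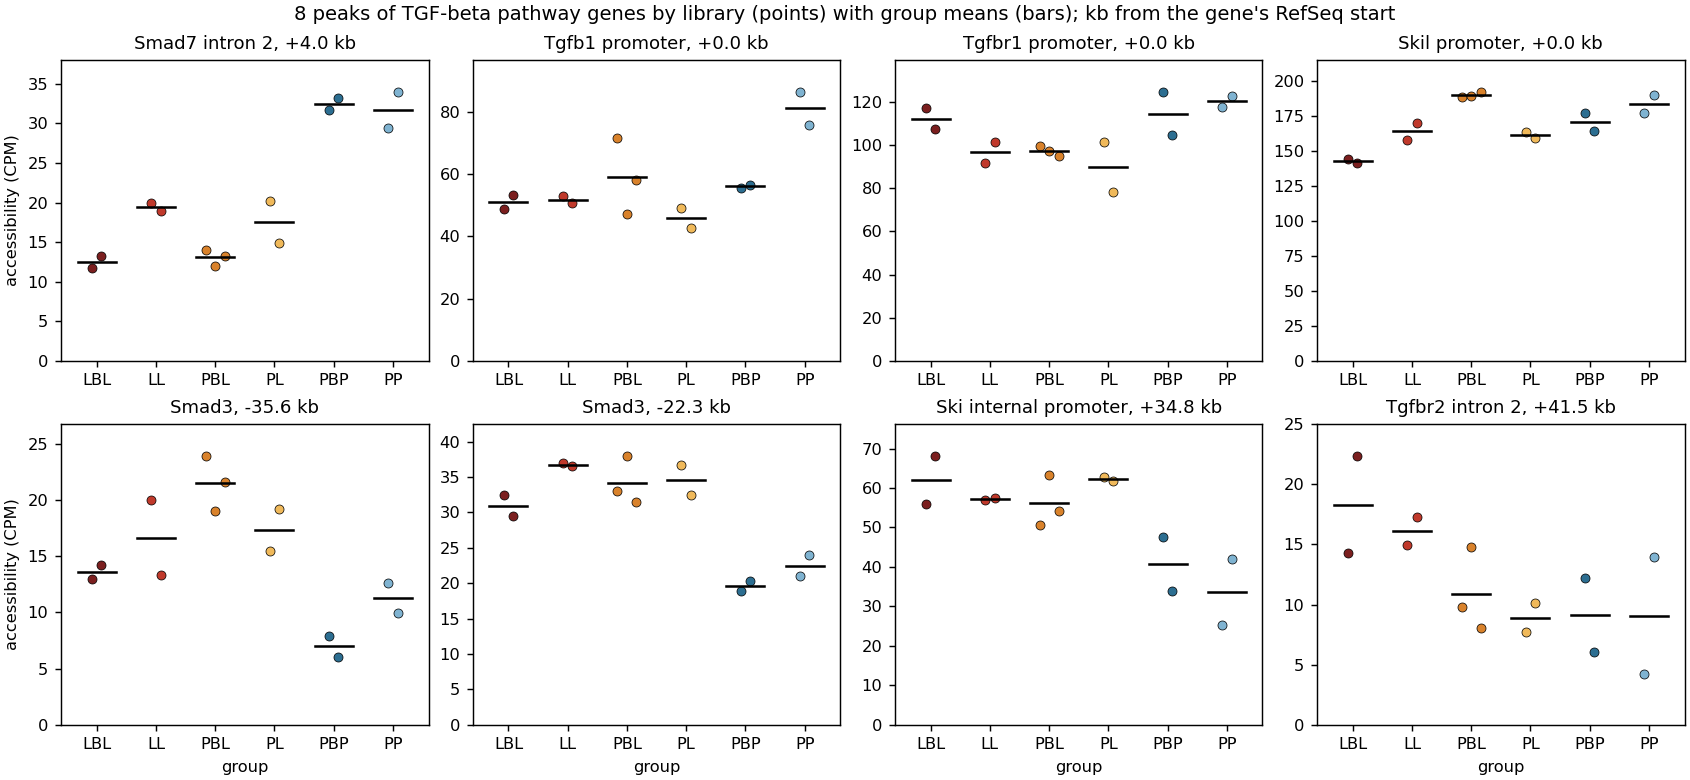
CPM of 8 peaks by library (points) and group mean (bars), with groups in the order LBL, LL, PBL, PL, PBP and PP and vertical axes from 0. At the Smad7 peak the LPS libraries have 11.7 to 20.2 CPM and the PBS libraries 29.4 to 33.9 CPM, and at the Smad3 peak 22293 bp upstream the order is the other way round.

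Ski and Skil encode SKI and SnoN, which recruit histone deacetylase complexes to SMADs and are degraded when TGF-beta signals. Ski had 13 peaks and its promoter peak (chr4:155222997-155223810) did not differ beyond the spread, at 75.1 to 108 CPM over all libraries (adjusted p = 0.194 across the 6 groups). The peak near the start of a short transcript inside the gene (chr4:155187072-155187729), 34806 bp into it, was higher after LPS. It had 62.8 and 61.8 CPM in PL libraries, against 25.2 and 41.9 CPM in PP libraries. It had 50.6, 63.4 and 54.3 CPM in PBL libraries, against 47.6 and 33.9 CPM in PBP libraries. The LBL and LL libraries had 55.9 to 68.0 CPM, so all 9 LPS libraries lay above all 4 PBS libraries.

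That internal Ski peak had a log2 fold change of 0.88 ± 0.21 in PL against PP (1.84-fold, adjusted p = 0.00308), 0.45 ± 0.17 in PBL against PBP (adjusted p = 0.0755) and 0.67 ± 0.14 with arms averaged (adjusted p = 8.38e-05). Without PP 1_2, the lowest library, the PL against PP value was 0.56 and not called (adjusted p = 0.27). The averaged call was kept in every alternative run. Of the 59 members, 5 had all LPS libraries above all PBS libraries, beside 4.98% of all peaks: this Ski peak, 2 other Ski peaks and the 2 upstream Smad3 peaks. Of these Ski peaks, the one farther in (chr4:155178218-155178772) had 36.5, 38.9 and 35.9 CPM in PBL libraries, against 23.8 and 24.1 CPM in PBP libraries, at 0.63 ± 0.20 (adjusted p = 0.029). That call was lost without PBP 1_2 (adjusted p = 0.241), PBP 3_4 (0.164), PBL 3_4 (0.0872) or PBL 4_5 (0.0508) and with DESeq2 (0.199). The other (chr4:155197746-155198017) differed across the 6 groups (adjusted p = 0.0102) and was 0.77 ± 0.21 with arms averaged (adjusted p = 0.00535).

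That intron 2 peak of Ski had 26.0, 26.8 and 16.9 CPM in PBL libraries, against 12.2 and 15.1 CPM in PBP libraries, and 16.01 and 29.8 CPM in PL libraries, against 14.7 and 12.0 CPM in PP libraries. Its averaged call was lost without PL 3_4 (0.48, adjusted p = 0.203), PP 3_4 (0.0645) or PBP 1_2 (0.0575), with DESeq2 (0.0716) and after thinning (0.126). The 6-group call was lost without PP 3_4 (adjusted p = 0.0614) or PBP 1_2 (0.103), with DESeq2 (0.286) and after thinning (0.255). A further Ski peak (chr4:155163230-155163653) went the other way. It had 18.3, 16.6 and 12.8 CPM in PBL libraries, against 29.3 and 20.4 CPM in PBP libraries, and 20.2 and 9.59 CPM in PL libraries, against 23.1 and 28.0 CPM in PP libraries. It was -0.71 ± 0.24 in PBL against PBP (adjusted p = 0.0436) and -0.76 ± 0.20 with arms averaged (adjusted p = 0.00246). The PBL against PBP call was lost without PBP 1_2 (-0.42, adjusted p = 0.608), PBL 3_4 (0.0597) or PBL 4_5 (0.249), with DESeq2 (0.35), limma-trend (0.131 and, after loess, 0.117), after thinning (0.129) and with the pool number as a block (0.274). The averaged call was lost without PL 3_4 (-0.54, adjusted p = 0.058) or PBP 1_2 (0.0677) and with DESeq2 (0.0501). The 8 remaining Ski peaks averaged 15.9 to 78.7 CPM and were not called in any comparison.

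Skil had a promoter peak of 1633 bp (chr3:31094346-31095978), with a mean level of 104 CPM per kb, next to the Ski promoter peak at 112 CPM per kb. It was lower in LBL than in PBL. It had 144 and 141 CPM in LBL libraries, against 188, 189 and 192 CPM in PBL libraries. The LBL libraries lay below all 11 other libraries, without a share over all peaks to set beside this. The other libraries had 158 and 170 CPM in LL, 164 and 159 in PL, 177 and 164 in PBP and 177 and 190 CPM in PP. The log2 fold change was -0.41 ± 0.09 in LBL against PBL (1.33-fold lower, adjusted p = 0.00515), and -0.20 ± 0.10 in LBL against LL (adjusted p = 0.617). LL against PL was 0.03 ± 0.10 (adjusted p = 0.978). The LBL against PBL call was lost without LBL 1_2 (adjusted p = 0.104) or LBL 3_4 (0.162), with DESeq2 (0.231), limma-trend after loess (0.0553) and after thinning (0.157). LBL and PBL share a sorter and BLZ945 but were isolated on different days, which cannot be told apart from the earlier LPS.

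For the earlier LPS injection and for BLZ945 the members gave few calls. In LBL against PBL the Skil promoter was the single member to pass, lower, beside 1.9% of all peaks (0.973% higher and 0.928% lower). In LL against PL none of 59 passed by edgeR or DESeq2, beside 0.064% of all peaks. At an unadjusted p under 0.05 there were 8 of 59, beside 2933 of all 37516 peaks. With arms averaged, repeated against single LPS gave 2 calls, 1 higher and 1 lower, described above for Tgfbr2 and Tgfb1, beside 2.45% of all peaks (1.11% higher and 1.34% lower). BLZ945 against vehicle gave no member call by edgeR or DESeq2 in any pair. Of all peaks, 0.16% were called in PBP against PP, 0.0826% in PBL against PL and 0.0506% in LBL against LL. At an unadjusted p under 0.05 there were 4, 7 and 6 of the 59 in that order, beside 3652, 4068 and 3023 of all 37516 peaks. Each of these pairs also differs in isolation day. Averaged over the 3 injection schemes, a contrast added after the data were seen, none was called, beside 0.408% of all peaks. There 5 of 59 had an unadjusted p under 0.05, beside 4020 of all 37516. The difference between the arms in their response to first LPS gave no call by edgeR or DESeq2, beside 0.0746% of all peaks. Its unadjusted p was under 0.05 for 6 of 59 members, beside 4158 of all 37516 peaks. With isolation day as a term among PP, PBP and PL, PBP against PP gave 3 calls. That term rests on the 2 PL pools, which alone span 2 days. The share of all peaks called in that fit is not given here, so this count is not a result about the members.

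Summed by gene, 2 loci passed in 1 of the 7 pairwise comparisons each. The Tgfb1 locus was lower in PL, with 120 and 107 CPM, than in PP, with 166 and 145 CPM, at -0.45 ± 0.13 (adjusted p = 0.0192, beside 10.6% of 13729 loci). The Skil locus was lower in LBL, with 219 and 226 CPM, than in PBL, with 280.5, 294.5 and 280.7 CPM, at -0.36 ± 0.09 (adjusted p = 0.0142, beside 1.14%). The Tgfb1 call was lost without PP 1_2 (adjusted p = 0.278) or PL 3_4 (0.177), with DESeq2 (0.0976) and in a fit of PL and PP alone (0.0546). The Skil call was lost without either LBL pool (0.308 and 0.192), PBL 3_4 (0.0901) or PBL 4_5 (0.0621), with DESeq2 (0.143) and after thinning (0.0954). It was also lost with the LBL libraries summed (0.109) and with peaks within 10000 bp (0.0594) or 1000 bp (0.0617). No gene passed in PBL against PBP, LL against PL, PBP against PP, PBL against PL or LBL against LL by edgeR or DESeq2, beside 7.52%, 0.0364%, 0.175%, 0.328% and 0.0947% of loci in that order. At an unadjusted p under 0.05, a looser threshold than that of these shares, there were 3, 1, 1, 2 and 1 genes. With arms averaged over first LPS, Tgfbr1 was lower at -0.20 ± 0.07 (adjusted p = 0.0478, beside 15.3% of loci). That Tgfbr1 call was lost without any 1 of 10 libraries, at adjusted p of 0.0502 to 0.164. It was also lost with DESeq2 (0.159), after thinning (0.103) and with the pool number as a block (0.097).

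The other genes of the pathway, on lists chosen with earlier results of these data known, are given as summed loci. Of 89 listed symbols, in which Ccn2 and Ctgf name the same gene, 79 were tested. In PL against PP 4 were higher and 7 lower, 13.9% of those tested, beside 10.6% of all loci (6.58% higher and 4.06% lower), so this share was near the background. In PBL against PBP 8 were higher and 9 lower, 21.5% of those tested, beside 7.52% of all loci (5.2% higher and 2.32% lower). Among genes of ligand activation, Furin, the protease that cleaves the TGF-beta precursor, was higher in both: it averaged 125 ± 2.82 CPM in PL and 79.0 ± 5.67 CPM in PP (SD, n = 2 each; log2 fold change 0.66 ± 0.15, adjusted p = 0.00129), and 134 ± 18 CPM in PBL (n = 3) and 89.1 ± 3.94 CPM in PBP (n = 2; 0.59 ± 0.12, adjusted p = 0.000175). The remaining 11 tested genes of that list did not pass in either. Traf6, an E3 ligase of the non-SMAD arm that also serves Toll-like receptors, was 0.68 ± 0.13 in PL against PP (adjusted p = 0.000168) and 0.48 ± 0.11 in PBL against PBP (adjusted p = 0.00161), alone among 8 tested genes of that arm.

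Among other receptors, the activin receptor gene Acvr1b was lower in PL against PP (-0.63 ± 0.20, adjusted p = 0.0291) and Acvr2b in PBL against PBP (-0.40 ± 0.10, adjusted p = 0.00622), of 8 tested. Among cofactors, the acetyltransferase gene Ep300 was lower in PL against PP (-0.55 ± 0.13, adjusted p = 0.00182) and the transcription factor gene Runx3 higher in PBL against PBP (0.58 ± 0.14, adjusted p = 0.00409), of 10 tested. Runx3 was lower in LBL than in PBL (-0.53 ± 0.14, adjusted p = 0.0312). Among inhibitors and turnover genes, the deubiquitinase gene Usp4 was lower in PL against PP (-0.68 ± 0.19, adjusted p = 0.00968) and Fkbp1a, whose product FKBP12 binds the type I receptor, higher in PBL against PBP (0.46 ± 0.13, adjusted p = 0.0107), of 13 tested.

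Of 12 tested target genes of TGF-beta, 2 were higher in PL against PP, beside 6.58% of all loci, and 4 in PBL against PBP, beside 5.2%, and none was lower. Id1, an inhibitor of differentiation factors that bone morphogenetic proteins also induce, was 1.01 ± 0.18 in PL against PP (adjusted p = 7.81e-05) and 1.19 ± 0.14 in PBL against PBP (adjusted p = 2.27e-09). Id2, of the same family, was 0.42 ± 0.14 in PL against PP (adjusted p = 0.0345), and Bhlhe40, a transcription factor gene, was 0.98 ± 0.17 in PBL against PBP (adjusted p = 9.44e-06). Of 16 tested microglial genes known to depend on TGF-beta, 4 were lower in PL against PP, beside 4.06% of all loci, and 8 in PBL against PBP, beside 2.32%, and none was higher. The median log2 fold change of the targets was 0.0705 in PL against PP and 0.217 in PBL against PBP, and that of the microglial genes -0.255 and -0.331, beside -0.00175 and 0.00355 over all loci. Mertk, a receptor for apoptotic cells, averaged 155 ± 1.19 CPM in PL and 267 ± 6.58 CPM in PP (SD, n = 2 each), at -0.78 ± 0.11 (adjusted p = 5.65e-07). Siglech, a sialic acid binding lectin, averaged 55.2 ± 5.30 CPM in PBL (SD, n = 3) and 126 ± 18.9 CPM in PBP (n = 2), at -1.17 ± 0.13 (adjusted p = 1.79e-10). After repeated LPS, Mertk was higher in LL than in PL (0.48 ± 0.10, adjusted p = 0.0394) and in LBL than in PBL (0.47 ± 0.09, adjusted p = 0.00216). Siglech was also higher in LBL than in PBL (0.53 ± 0.14, adjusted p = 0.0285). LL against PL shares the PL libraries with PL against PP, and LBL against PBL shares the PBL libraries with PBL against PBP. Itgb5, an integrin subunit, was higher in LBL than in PBL (0.32 ± 0.08, adjusted p = 0.0227).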

How the data were processed

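The authors deposited 1 table of estimated counts per peak, in steps of 0.5, with 49.5% of values ending in 0.5. No source used here names the tool that counted. Per the submitters' processing notes, GRCm38 (mm10) was the build, and the tools named were MACS2 2.1.1 and HOMER 4.9.1, with ChIPseeker 1.38, deepTools 3.3.0, Bowtie2 2.2.6, cutadapt 1.9.1, SAMtools 1.7, bedtools 2.26 and Picard 1.126. Peak positions and the distance to the nearest start site are the authors' annotation, per the file headers.

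Counts were rounded to whole numbers and tested with edgeR 4.0.16 in R 4.3.3: TMM normalisation, filterByExpr with a minimum count of 10, and a robust quasi-likelihood fit of 6 group means over all 13 libraries. Two-sided p-values were adjusted by Benjamini-Hochberg over 37516 peaks, and an adjusted p under 0.05 counted as called. All 59 members passed the filter. The standard error of a log2 fold change is its size divided by the square root of F. For loci, the peaks within 50000 bp of a gene's start sites were summed and 13729 loci tested the same way. Named are, per gene, the promoter peak with the highest mean CPM, every member peak called in a comparison or across the 6 groups, and the 3 most similar peaks of other genes. Values are given for the groups discussed, for some peaks as ranges, and not every call of a named peak is listed. Of the pathway lists, the 2 genes with the smallest p in each direction per list are named, except 1 that is not reported here. The members and the lists were chosen with earlier results of these data known, and the averaged contrasts were added after the data were seen. Promoter sequences come from a table of RefSeq promoters, in which 5 of the 9 genes were matched. The test was tried on simulated counts first. Pool numbers did not pair libraries: over 30 pairs with the same number the correlation of deviations was -0.0174 to 0.162, with 2 above 0.1. Between groups of 2 libraries both pairs give the same value, so these are not 30 separate values. Alternatives used DESeq2 1.42.0, limma 3.58.1, other scalings, thinning to 927840 counts, no filter, leaving out each library, fits of the groups compared alone, a pool number block, isolation day as a term and other distances for loci.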

Additional observations from a re-analysis of the deposited data

How the results depend on the processing

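No called member changed direction under any alternative run. Over 40 called results for single peaks, 737 of 896 alternative values were still called, and 7 results were called under all of them. DESeq2 kept 11 of the 40 and thinning to the smallest library 20. Over 7 called locus results, 109 of 171 values were still called and none was called under all. In PL against PP, 4 members were called, against 2 with DESeq2, 2 in a fit of those groups alone, 8 with isolation day as a term, and 0 (without PP 1_2) to 9 (without PL 1_2) with 1 library left out. In PBL against PBP, 7 were called, against 2 with DESeq2, 11 in a fit of those groups alone, and 3 to 11 with 1 library left out. In LBL against PBL, 1 was called, against 0 with DESeq2, 0 after thinning, 2 in a fit of those groups alone, and 0 to 3 with 1 library left out. In PBP against PP none was called, against 3 with isolation day as a term. For the difference of the first LPS responses, 0 to 3 were called with 1 library left out. With first LPS averaged over arms, 11 were called, against 5 with DESeq2 and 5 to 16 with 1 library left out. For repeated against single LPS, 2 were called, against 0 with DESeq2, 0 after thinning, 1 with limma-trend, 1 after cyclic loess, and 0 to 3 with 1 library left out. Across the 6 groups 15 were called, against 2 with DESeq2, 8 after thinning, and 9 to 18 with 1 library left out. Of the member loci, 2 were called in pairwise comparisons, against 4 after cyclic loess, 0 with DESeq2, 1 after thinning, 1 in fits of the groups alone, 1 with the LBL libraries summed (an alternative chosen after seeing the data), 5 with peaks within 10000 bp, and 1 to 4 with 1 library left out. These counts are given without the shares of all peaks called under the same settings, so they are not results about the members. The cause of the differences between settings was not tested.

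With the pool number as a replicate block, 4 members were called in PL against PP, 6 in PBL against PBP, 1 in LBL against PBL and 14 across the 6 groups, and 36 of the 40 peak results were still called. The numbers did not pair the libraries, so the block has no basis in the design. With 2 pools in most groups and 927840 to 2772688 counts per library, peaks near 5 CPM rest on few counts per library.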
